A study of Mus musculus with 6 samples.

Results

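The imprinted growth genes are 10 named genes, of which 9 could be read. They are H19, Meg3, Cdkn1c and Grb10, which are expressed mainly from the maternal allele, and Igf2, Dlk1, Peg3, Mest, Ndn and Plagl1, which are expressed mainly from the paternal allele. Members were taken as every probe set (a set of short oligonucleotides that together read 1 transcript) whose annotation gives exactly 1 of these gene symbols. This rule found 36 of the 45101 probe sets, 15 for 3 of the 4 maternally expressed genes and 21 for all 6 paternally expressed genes. H19 has no such probe set, since the 1 probe set annotated to it also carries the symbol of a second gene, and it is not read here. Of the 36 probe sets, 28 were bright enough to be tested, and 8 were not.

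RNA came from whole kidneys of C57BL/6 embryos at embryonic day 12.5, in 3 Ret-deficient and 3 wild-type biological replicates, each hybridised to 1 Affymetrix mouse whole-genome array. Sample titles and genotype entries make the embryos Ret-deficient, whereas the source entry ascribes the knockout to the pregnant female, and the titles were followed. The labels name neither the Ret allele nor the litter of origin, nor do they say how many embryos were pooled, and the replicates may therefore share a litter. Ret is the receptor for GDNF on the ureteric bud, the epithelium that branches into the collecting ducts. Its brighter probe set had signals of 93.3, 479.8 and 334.1 on the Ret-deficient arrays, against 13315, 11042 and 10193 on the wild-type arrays.

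An imprinted gene is transcribed from 1 parental allele because DNA methylation laid down in the egg or the sperm marks its control region. Many imprinted genes act on prenatal growth: the paternally expressed Igf2 is a fetal growth factor, while the maternally expressed Grb10 and Cdkn1c restrain growth. Several lie in shared domains, so that H19 and Igf2 use common enhancers under 1 control region, as do Dlk1 and Meg3 under another. The arrays add up both alleles, and a value here does not say from which allele the RNA came. In whole kidneys, fewer cells of a type and less RNA per cell cannot be told apart.

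Wild-type replicate 1 stood apart from the other 5 arrays. Its Xist signal was 66.2, against 21078 to 26277 on the others, and its Y-linked Eif2s3y signal was 12302, against at most 67.5. Its ratio of 3′ to 5′ signal at the actin control probe sets, a measure of how complete the labelled RNA was, reached 10.7, against 3.88 to 5.21 elsewhere. It gave the highest or the lowest of the 6 values at 49.3% of all tested probe sets and at 21 of the 28 tested member probe sets, the highest at 15 of them. The differences of named genes are therefore also given without that array, which leaves 5 arrays that all express Xist. Median signals per array lay between 258.9 and 351.6, and precision is limited by having 6 arrays.

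No imprinted growth gene passed the test for a difference between Ret-deficient and wild-type kidneys. Signals were compared as log2(signal + 16), each difference being the Ret-deficient mean less the wild-type mean. In limma with Benjamini-Hochberg adjustment over the 22519 tested probe sets, 0 of the 28 member probe sets had an adjusted p under 0.05, with adjusted p-values of 0.924 and above, and the share among all tested probe sets was also 0%. At an unadjusted p under 0.05 the count was 0 of 28, against 1208 of all tested probe sets (5.36%), and the groups were free of overlap at 0 of 28, against 10.8% of all. Differences were positive at 13 and negative at 15 of the 28. Under each of 16 alternative settings, 0 of the 9 genes passed the adjusted threshold. In the main fit even Ret, with a difference of -5.43 and no overlap, did not pass (adjusted p = 0.299 in limma). A gene that was not called is therefore not shown to be unchanged.

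Each gene is represented by its brightest tested probe set. Over the 9 genes the differences lay between -0.40 and 0.30 on the log2 scale, 5 of them positive and 4 negative. For 8 of the 9, the 95% confidence interval of the difference stayed within 1 log2 unit on either side of 0, and only that of Dlk1 reached beyond it. The exact two-sided permutation test, whose smallest p with 3 arrays a group is 0.1, gave at least 0.2 for each. Over all 28 tested member probe sets, 19 intervals stayed within 1 log2 unit, and the outermost ends were -2.07 and 1.42. The limits for the 9 genes thus hold only for their bright probe sets, and for the sum of both alleles in the whole organ.

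**Figure D1:**
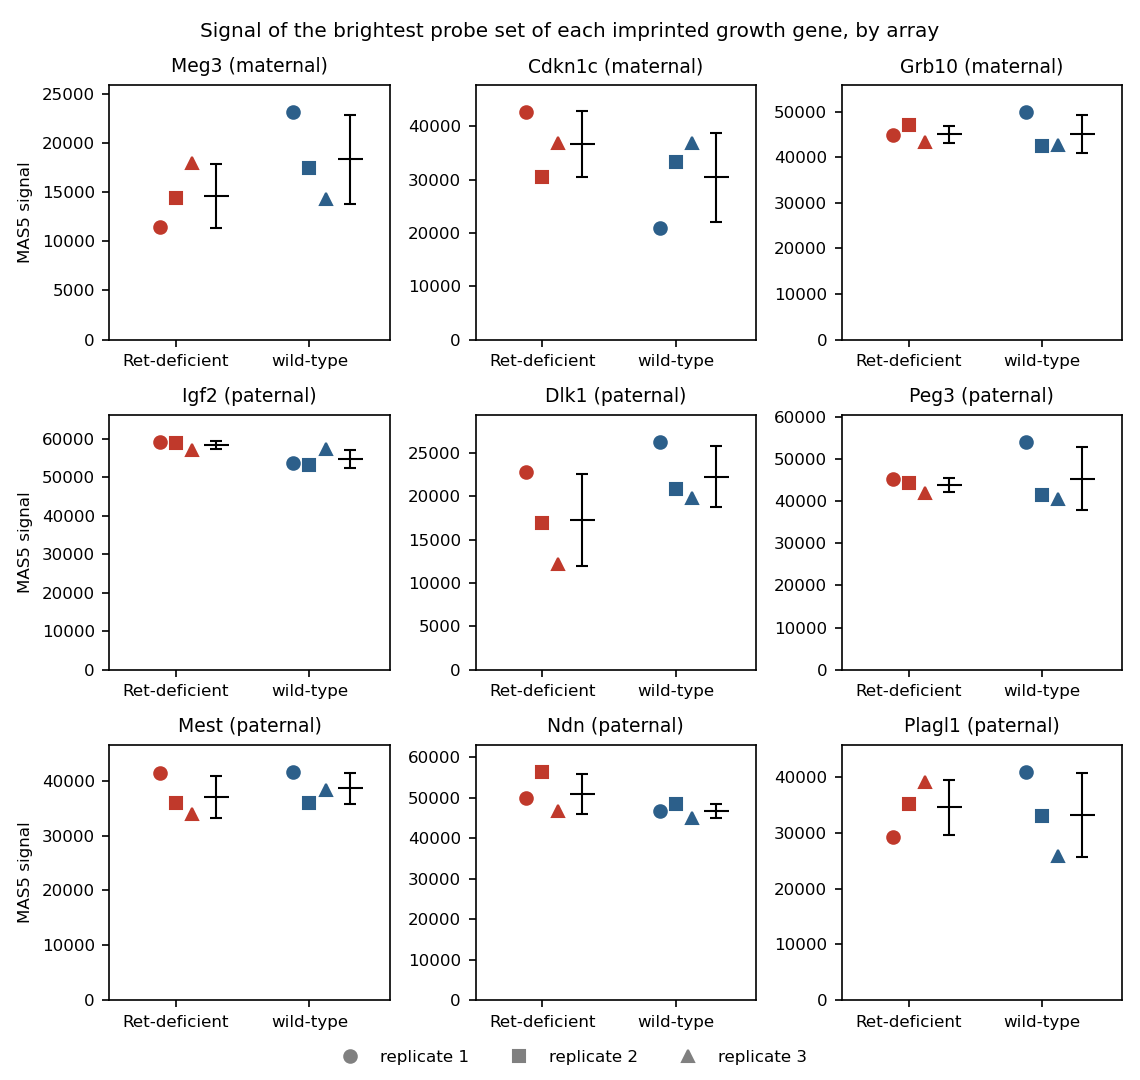
Signal of the brightest probe set of each of the 9 genes on every array (linear vertical axis from 0, arbitrary units), Ret-deficient in red and wild-type in blue, with the mean and SD of each 3 arrays beside them. The groups overlap at all 9 genes, and wild-type replicate 1 is the highest or lowest array at 7 of them, as it was at 50.4% of all genes.

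Igf2, which encodes the secreted growth factor that signals through the type 1 IGF receptor, had similar signals on all arrays at its bright probe set. The signals of 1448152_at were 59141, 58846 and 57133 in Ret-deficient kidneys, against 53589, 53097 and 57408 in wild-type kidneys. Ret-deficient replicates 1 and 2 lay above all wild-type arrays and replicate 3 just below the highest of them. The difference was 0.095 on the log2 scale (SE 0.14, adjusted p = 0.975 in limma), and 0.080 without wild-type replicate 1.

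The dimmer Igf2 probe set, 1415931_at, had the opposite sign. It gave 4730.0, 2301 and 2964 in Ret-deficient kidneys, against 7086, 5078 and 4182 in wild-type kidneys. Ret-deficient replicates 2 and 3 were the lowest of the 6 arrays, while replicate 1 fell among the wild-type values. The difference of -0.74 (SE 0.32, adjusted p = 0.924 in limma) was -0.53 without wild-type replicate 1. It had the lowest unadjusted p of the 28 tested member probe sets. The probe sets annotated to this 1 gene thus differed by 0.83 log2 units in their group difference, and neither passed the test.

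Grb10, an adaptor protein that binds the insulin and IGF1 receptors and limits fetal growth, had nearly the same mean in both groups. Its bright probe set 1425458_a_at averaged 45087 ± 1865 in Ret-deficient kidneys and 45081 ± 4226 in wild-type kidneys (SD, n = 3 each). The difference was 0.0035 on the log2 scale (SE 0.15, adjusted p = 0.999 in limma), with a 95% interval of -0.36 to 0.37, and 0.080 without wild-type replicate 1. At the dimmer 1425457_a_at the signals were 1339, 890.5 and 701.7 in Ret-deficient kidneys, against 670.1, 781.5 and 584.9 in wild-type kidneys, a difference of 0.47 (SE 0.27, adjusted p = 0.938 in limma) that was also 0.47 without wild-type replicate 1. Ret-deficient replicates 1 and 2 exceeded every wild-type array there, while replicate 3 did not. The remaining probe set, 1430164_a_at, gave 0.39, and -0.075 without wild-type replicate 1.

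Of the other genes of the IGF pathway (receptors, binding proteins, adaptors and RNA-binding proteins), 18 of 24 listed had a tested probe set. None of the 18 passed limma's adjusted threshold, 2 had an unadjusted p under 0.05, against 5.54% of all genes, and 3 did not overlap between groups, against 11.8% of all genes. Differences were positive at 6 and negative at 12, with a median of -0.12 (0.0022 without wild-type replicate 1), beside 0.0030 over all 11592 genes. Igf1, the other IGF ligand, averaged 2370 ± 89.5 in Ret-deficient kidneys and 3736 ± 991 in wild-type kidneys (SD, n = 3 each). Its 3 Ret-deficient values lay below the wild-type values, with a difference of -0.62 (SE 0.21, adjusted p = 0.884 in limma) that was -0.41 without wild-type replicate 1. Igf2bp1, which encodes an RNA-binding protein of Igf2 messenger RNA, had a difference of -0.48 (SE 0.20, adjusted p = 0.921 in limma), and -0.34 without wild-type replicate 1.

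Stc2, which encodes an inhibitor of the protease that cleaves IGF-binding proteins, had the lowest unadjusted p of the pathway. Its signals were 199.6, 761.0 and 580.8 in Ret-deficient kidneys, against 1414, 1861 and 1735 in wild-type kidneys. All Ret-deficient arrays lay below all wild-type arrays, and the difference was -1.85 (SE 0.47, adjusted p = 0.861 in limma), and -1.97 without wild-type replicate 1. The IGF receptor Igf1r had a difference of 0.27 (SE 0.27), which was 0.012 without wild-type replicate 1. Igf2r, the maternally expressed receptor that clears IGF2, had one of -0.066 (SE 0.22), which turned to 0.14 without that array.

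Dlk1, which encodes a transmembrane protein related to the Notch ligands and marks many immature fetal cells, had the largest difference among the 9 bright probe sets. The signals of 1449939_s_at were 22750, 16903 and 12137 in Ret-deficient kidneys, against 26239, 20793 and 19735 in wild-type kidneys. Ret-deficient replicates 2 and 3 were the lowest arrays, and replicate 1 lay within the wild-type range. The difference was -0.40 (SE 0.26, adjusted p = 0.940 in limma), and -0.28 without wild-type replicate 1. The second probe set, 1442724_at, gave 1287, 920.1 and 570.2 in Ret-deficient kidneys, against 1433, 1210 and 1403 in wild-type kidneys. Here too Ret-deficient replicate 3 was lowest, and the difference was -0.61 (SE 0.30, adjusted p = 0.936 in limma), and -0.56 without wild-type replicate 1.

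The array with the least Dlk1 also differed in other markers. In Ret-deficient replicates 1, 2 and 3 the summed signal of 9 cell cycle genes (9 of 10 listed, all above the bacterial control probe sets on every array) was 200448, 177717 and 147912, against 198942, 182033 and 189820 in wild-type kidneys. Replicate 3 was thus the lowest of the 6 in both. The summed signal of 10 macrophage markers, 7 of them above those controls on every array, was 37258, 25666 and 71295 in Ret-deficient kidneys, against 27313, 20063 and 31462 in wild-type kidneys. Replicate 3 was the highest of the 6 there. The 8 endothelium markers, all above those controls on every array, summed to 26128, 19850 and 15857 in Ret-deficient kidneys, against 36154, 19296 and 22698 in wild-type kidneys. In this sum, as for Dlk1, wild-type replicate 1 was highest and Ret-deficient replicate 3 lowest. The single endothelium markers did not all follow the sum. Kdr, Tek, Tie1, Esam and Cldn5 were highest on wild-type replicate 1, but Pecam1 and Emcn were not, and Cdh5 was lowest there. The part of these marker groups in the Dlk1 values was not tested. Without Ret-deficient replicate 3 the Dlk1 difference was -0.17 (adjusted p = 0.853 in limma). Without Ret-deficient replicate 1 it was -0.62 (adjusted p = 0.914 in limma), the 1 case among 16 alternative settings in which the unadjusted p of a gene of the 9 was under 0.05.

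Meg3 is a maternally expressed noncoding RNA of the same domain as Dlk1. In the RefSeq annotation of GRCm38.p6, 2 annotated genes lie between them, 0 of them protein-coding. Meg3 is read by 11 probe sets, more than any other member. At the brightest, 1439380_x_at, the signals were 11406, 14421 and 17922 in Ret-deficient kidneys, against 23168, 17475 and 14323 in wild-type kidneys. The highest and the lowest array belonged to wild-type replicate 1 and Ret-deficient replicate 1, and the others overlapped. The difference was -0.33 (SE 0.25, adjusted p = 0.950 in limma), and -0.14 without wild-type replicate 1.

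All 8 tested Meg3 probe sets had negative differences, between -0.86 and -0.10. These probe sets read 1 transcript unit on the same arrays and do not add independent support. Wild-type replicate 1 was the highest array at 6 of the 8, and Ret-deficient replicate 1 the lowest at 5. Without wild-type replicate 1, 7 of 8 differences were negative, between -0.36 and 0.079. Adjusted p-values in limma ran between 0.938 and 0.986.

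**Figure D2:**
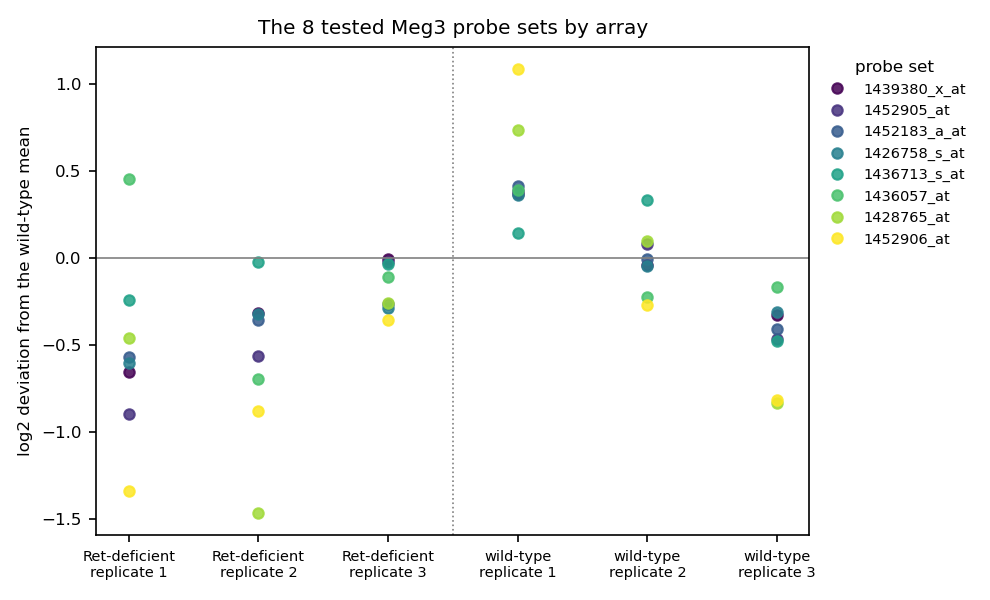
Each point is 1 of the 8 tested Meg3 probe sets on 1 array, as log2(signal + 16) minus the mean of the 3 wild-type arrays for that probe set (vertical axis), with the arrays along the horizontal axis. Wild-type replicate 1 carries most of the points above 0, and wild-type replicate 3 lies below 0 like most Ret-deficient points.

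Among the 3 dim Meg3 probe sets that were not tested, 1429257_at was the 1 member probe set whose groups did not overlap. Its signals were 23.3, 248.5 and 213.1 in Ret-deficient kidneys, against 331.5, 427.1 and 337.2 in wild-type kidneys. It exceeded the brightest bacterial control probe set on 5 of the 6 arrays, and all Ret-deficient values were lower than all wild-type values (exact permutation p = 0.1, two-sided, the smallest possible).

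RefSeq promoter windows, cut to the 250 bases before the annotated start, were matched for 8 of the 10 genes, in 15 windows. They are shown for Meg3 and Peg3 because these are the 2 member windows that hold TGACGTCA, the palindromic site read by factors of the CREB and ATF family. That word occurs in 508 of all 32851 windows (1.55%). The Meg3 window at chr12:109540746-109540995 (GRCm38.p6, plus strand) has the word 57 bases before the start, and a TATAAA, searched on both strands and present in 12.4% of windows, begins 25 bases before it, overlapping its reverse complement TTTATA. The Peg3 window at chr7:6730420-6730669 (minus strand) has TGACGTCA 178 bases before the start. GGGGCCCC, a palindrome reported as a binding word of the Plagl1 protein, was also searched and is in 0.889% of all windows and in 1 member window, that of Peg3, 201 bases before the start. Capitals mark TGACGTCA, TATAAA and TTTATA, and both sequences are written 5′ to 3′ on the strand of the gene.
Meg3: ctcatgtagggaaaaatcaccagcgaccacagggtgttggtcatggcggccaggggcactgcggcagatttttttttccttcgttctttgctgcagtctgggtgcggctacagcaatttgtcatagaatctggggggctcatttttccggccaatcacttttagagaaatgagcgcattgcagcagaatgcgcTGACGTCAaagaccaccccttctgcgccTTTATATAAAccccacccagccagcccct
Peg3: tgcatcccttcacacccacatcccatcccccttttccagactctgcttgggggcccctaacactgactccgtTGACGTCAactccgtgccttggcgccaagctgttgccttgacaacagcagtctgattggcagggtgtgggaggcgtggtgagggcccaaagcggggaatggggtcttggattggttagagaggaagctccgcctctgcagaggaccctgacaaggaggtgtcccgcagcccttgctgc
These letters describe the sequence, and no binding was measured. The 15 member windows had a median of 60.4% G and C and 8 CpG sites, beside 52.4% and 6 over all windows.

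Cdkn1c encodes p57, an inhibitor of cyclin-dependent kinases that stops cells from dividing as they differentiate. Its 1 probe set, 1417649_at, had signals of 42730, 30458 and 36962 in Ret-deficient kidneys, against 21012, 33347 and 36977 in wild-type kidneys. Wild-type replicate 1 was the lowest array by a wide margin, and the other 5 overlapped. The difference of 0.30 (SE 0.26, adjusted p = 0.950 in limma) was 0.051 without that array.

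The other cell cycle inhibitors of its family, the D and E cyclins and their kinases were tested at 10 of 10 genes. None passed limma's adjusted threshold, 0 had an unadjusted p under 0.05 and 1 did not overlap, near the 11.8% of all genes. Of the differences, 4 were positive and 6 negative, with a median of -0.067 (-0.20 without wild-type replicate 1). That gene was the kinase Cdk6, with a difference of -0.46 (SE 0.22, adjusted p = 0.935 in limma). The inhibitor Cdkn1b gave 0.37 (SE 0.20) and the cyclin Ccnd1 -0.25 (SE 0.21). Without wild-type replicate 1 the values were -0.34 for Cdk6, 0.30 for Cdkn1b and -0.40 for Ccnd1.

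Peg3, a zinc finger protein gene, had a bright probe set 1433924_at with signals of 45301, 44216 and 42002 in Ret-deficient kidneys, against 54028, 41543 and 40472 in wild-type kidneys. The Ret-deficient values lay inside the wild-type range, and the difference of -0.037 (SE 0.18, adjusted p = 0.990 in limma) was 0.096 without wild-type replicate 1. The sign also turned, to 0.075, when the arrays were centred on their medians. Probe set 1417355_at gave -0.21 (SE 0.27), and 0.031 without wild-type replicate 1. Probe set 1417356_at gave 0.0005 (SE 0.26), and -0.22 without that array. A further 2 never exceeded the bacterial control probe sets.

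Mest, which encodes a protein of the alpha/beta hydrolase fold, had signals of 41378, 35839 and 33881 in Ret-deficient kidneys, against 41537, 35837 and 38374 in wild-type kidneys at 1423294_at. Each group had 1 array near the top and the rest lower, and the groups overlapped almost fully. The difference was -0.062 (SE 0.16, adjusted p = 0.984 in limma) and was -0.0072 without wild-type replicate 1. It turned to 0.051 with median centring.

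Ndn, which encodes necdin, a MAGE family protein known for restraining cell growth in neurons, was read by 8 probe sets. The 5 tested ones gave small positive differences of 0.018 to 0.14, and 0.0093 to 0.12 without wild-type replicate 1. At the brightest, 1437853_x_at, the signals were 49902, 56302 and 46686 in Ret-deficient kidneys, against 46770, 48497 and 45080 in wild-type kidneys. Ret-deficient replicates 1 and 2 lay above all wild-type arrays, and replicate 3 among them, with a difference of 0.12 (SE 0.15, adjusted p = 0.965 in limma) that was 0.12 without wild-type replicate 1 too. The remaining 3 probe sets never exceeded the bacterial control probe sets, with signals of 2.0 to 176.6.

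Plagl1 encodes a zinc finger transcription factor that has been linked in the mouse to the expression of other imprinted genes. Its bright probe set 1426208_x_at had signals of 29354, 35284 and 39179 in Ret-deficient kidneys, against 40912, 33121 and 25798 in wild-type kidneys. The wild-type arrays spanned the whole Ret-deficient range, and the difference was 0.072 (SE 0.22, adjusted p = 0.988 in limma), and 0.23 without wild-type replicate 1. Probe set 1450533_a_at gave 0.14 (SE 0.17), and 0.12 without that array.

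The remaining Plagl1 probe set, 1438588_at, had the other sign. It gave 1004, 916.5 and 2386 in Ret-deficient kidneys, against 3816, 1572 and 1701 in wild-type kidneys, with wild-type replicate 1 the highest and Ret-deficient replicate 3 second. The difference of -0.73 (SE 0.48, adjusted p = 0.940 in limma) was -0.33 without wild-type replicate 1.

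**Figure D3:**
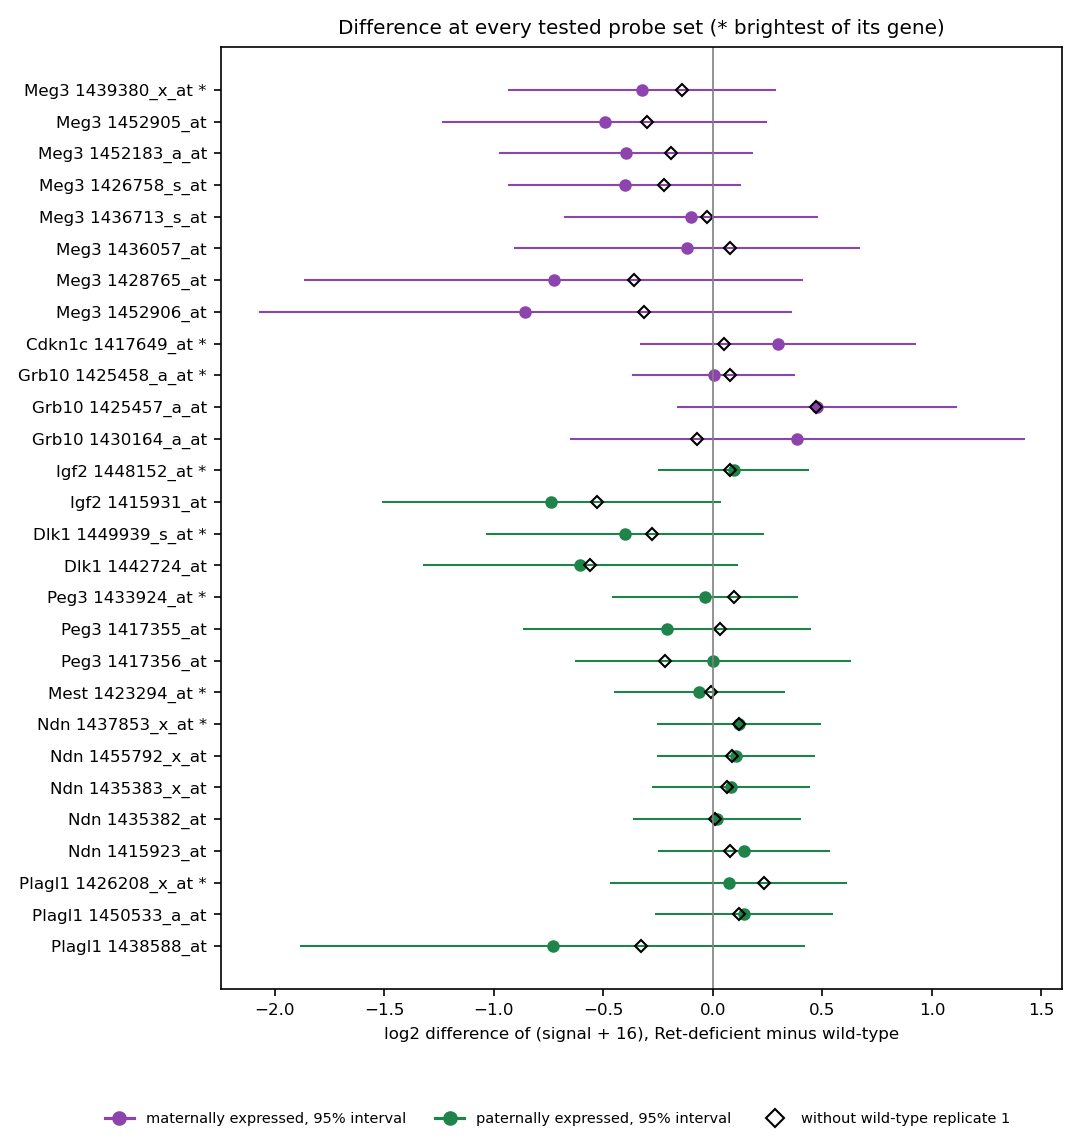
Difference at each of the 28 tested member probe sets (horizontal axis, log2 units, Ret-deficient minus wild-type) with its 95% confidence interval, maternally expressed genes in purple and paternally expressed genes in green. Open diamonds give the value without wild-type replicate 1, and every interval crosses 0.

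The maternally and the paternally expressed genes were then set side by side. Over the bright probe sets the median difference was 0.0035 for the 3 maternally expressed genes and 0.017 for the 6 paternally expressed genes, beside 0.0030 over all genes. The first median less the second was -0.014. By array, and relative to the wild-type mean, the maternal median less the paternal median was -0.071, 0.00040 and 0.047 in Ret-deficient kidneys, against -0.027, 0.024 and 0.030 in wild-type kidneys. The 2 groups of arrays overlapped in this measure. Without wild-type replicate 1 the medians were 0.051 for the maternally and 0.088 for the paternally expressed genes.

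The size of this difference depended on the choice of probe sets. When the mean of all tested probe sets of a gene was used instead, the medians became 0.29 for the maternally and -0.13 for the paternally expressed genes, 0.42 apart. Under that choice Grb10 and Igf2 took the values of their dimmer probe sets into account, and Igf2 turned to -0.32. Over the probe sets themselves, the 12 maternal ones had 4 positive and 8 negative differences with a median of -0.22, and the 16 paternal ones 9 and 7 with a median of 0.0094. Of the 12 maternal probe sets, 8 are those of Meg3, so the sign of the maternal side depends on how the probe sets are combined.

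**Figure D4:**
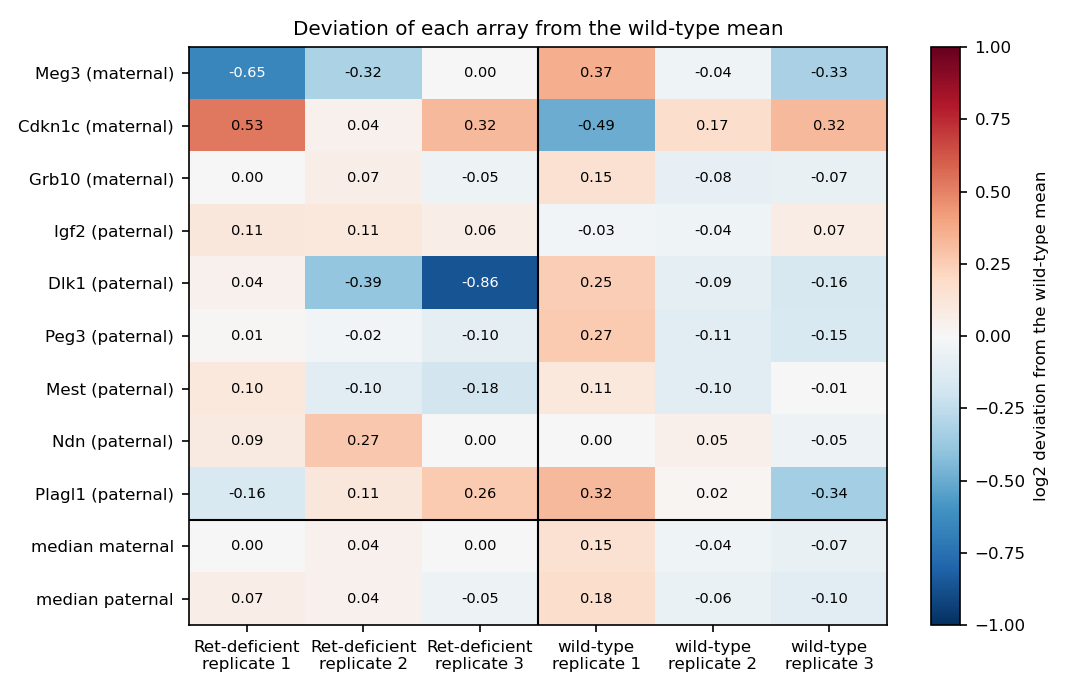
Heat map of the log2 deviation of each array from the wild-type mean (colour and printed number) at the bright probe set of the 9 genes, with the medians of the maternally and the paternally expressed genes in the bottom 2 rows. Meg3 and Dlk1 each have 1 strongly negative Ret-deficient array, but it is replicate 1 for Meg3 (-0.65) and replicate 3 for Dlk1 (-0.86).

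The members' differences were then set beside those of all genes, as a description. Their median size at the bright probe sets, ignoring sign, was 0.095, beside 0.164 over the 11592 genes, and 6 of the 9 were below that. With all tested probe sets of a gene averaged, it was 0.288, beside 0.174, and 4 of the 9 were below, so the order depended on the choice of probe sets. A larger difference than that of Dlk1 was found in 17.8% of genes, than that of Meg3 in 24.5% and than that of Cdkn1c in 27.4%. For Igf2 the share was 68.4%, and for Grb10 98.7%. All 9 lay within 0.5 log2 units of 0, as did 88.1% of all genes. The genes set beside the members were not matched for brightness. The bright probe sets of the members had signals of 11406 to 59141, whereas tested probe sets had mean signals of 304.5 and above. The part of brightness in the size of the differences was not tested.

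**Figure D5:**
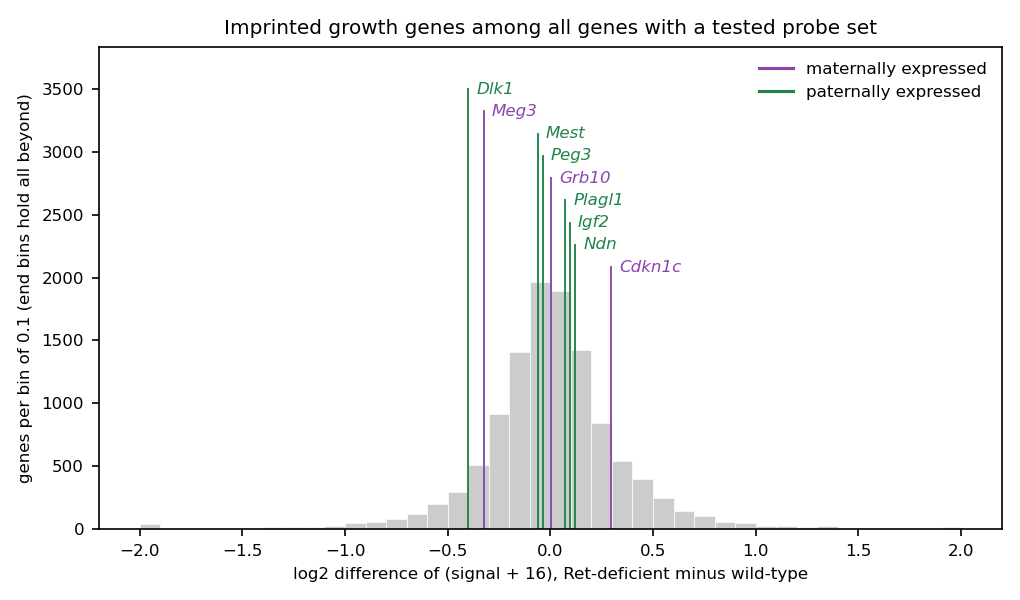
Histogram of the log2 difference of all 11592 genes with a tested probe set (grey, horizontal axis in log2 units, bins of 0.1), with a vertical line at the value of each of the 9 members. Line heights only separate the labels, and Dlk1 (-0.40) and Cdkn1c (0.30) mark the ends of the members' range.

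The medians over other imprinted genes were also near 0. Whether each of these genes is imprinted in the kidney was not tested. Of 19 other genes listed as maternally expressed, 15 were tested, with 6 positive and 9 negative differences and a median of -0.066 (-0.067 without wild-type replicate 1). Of 24 other genes listed as paternally expressed, 14 were tested, with 6 positive and 8 negative differences and a median of -0.012 (0.019 without that array). None of them passed limma's adjusted threshold, although 3 of the 15 maternal and 0 of the 14 paternal ones had an unadjusted p under 0.05, beside 5.54% of all genes. The 3 were Calcr, Osbpl5 and Cobl, whose groups also did not overlap, as was the case at 11.8% of all genes.

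Calcr, which encodes the calcitonin receptor, had signals of 62.6, 46.1 and 120.1 in Ret-deficient kidneys, against 531.8, 865.4 and 832.8 in wild-type kidneys. On every Ret-deficient array it was no brighter than that array's brightest bacterial control probe set, so no fold is given, and its adjusted p was 0.395 in limma. With arrays weighted by quality it passed the threshold (adjusted p = 0.0491 in limma). Osbpl5, a lipid transfer protein gene, gave 0.67 (SE 0.23, adjusted p = 0.881 in limma), and Cobl, an actin nucleator gene, 0.87 (SE 0.31, adjusted p = 0.906 in limma). Without wild-type replicate 1 the values were 0.78 for Osbpl5 and 0.97 for Cobl.

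The paternally expressed genes with the lowest unadjusted p were Nnat, Sgce and Magel2, with differences of 0.34, 0.25 and -0.34, and of 0.21, 0.081 and -0.26 without wild-type replicate 1. Magel2 is the next annotated gene to Ndn in RefSeq, with 0 genes between them, and its value had the opposite sign to those of the 5 tested Ndn probe sets. Genes that keep imprints in place, among them the DNA methyltransferases, were tested at 13 of 16, with 4 positive and 9 negative differences and a median of -0.030 (-0.011 without wild-type replicate 1). None of them passed limma's adjusted threshold and 0 had an unadjusted p under 0.05. Zfp57, the zinc finger protein that holds methylation at imprinted control regions, gave 0.13 (SE 0.18), Dnmt3a -0.14 (SE 0.16) and Smchd1 -0.30 (SE 0.22). Without wild-type replicate 1 the values were 0.19 for Zfp57, -0.13 for Dnmt3a and -0.098 for Smchd1.

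Markers of other cell types differed between the arrays. The summed signal of ureteric epithelium markers was 9685, 74300 and 59456 in Ret-deficient kidneys, against 91720, 105315 and 101866 in wild-type kidneys. Of 18 listed markers, 17 had a probe set, 9 exceeded the bacterial controls on every array and Wnt7b on none. The sum includes Ret itself, and Calb1 was its brightest marker on the wild-type arrays. All 14 tested markers had negative differences, but only 6 did not overlap between groups, beside 11.8% of all genes. Wnt9b, Krt18, Epcam, Spint1 and Spint2 were highest of all arrays on Ret-deficient replicate 2. Ret-deficient replicate 1, with the least ureteric signal, was also the lowest Meg3 array and the highest Cdkn1c array. Renal stroma markers (11 of 12 with a probe set, 10 above the controls on every array) summed to 170306 to 183912 in Ret-deficient kidneys, against 145883 to 164384 in wild-type kidneys. Of these 11 markers, 8 had positive and 3 negative differences, and 4 did not overlap. Of those 4, Foxd1, Meis2 and Dcn were higher in Ret-deficient kidneys and Aldh1a2 lower. The sum leaned on Col3a1, which overlapped between groups and ranged from 23019 to 43179 over the arrays. The part of these differences in the members' values was not tested.

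Markers of other tissues were summed in the same way, although a signal does not say whether it came from cells inside or outside the kidney. Skeletal muscle markers summed to 9506, 2580 and 7553 in Ret-deficient kidneys, against 14563, 1477 and 4500 in wild-type kidneys, with 3 of 8 above the controls on every array and Chrna1 on none. Cartilage markers, 5 of 7 above the controls on every array, summed to 69635, 57777 and 40461 in Ret-deficient kidneys, against 42042, 44605 and 50370 in wild-type kidneys. Nearly all of this came from Sox9, Col2a1 and Col9a1, and no other cartilage marker exceeded 365.2 on any array. The muscle sum was highest on wild-type replicate 1, mostly through Actc1 (13072 there), and no other muscle marker was highest on that array. Wild-type replicate 1 was also the highest array at the bright probe sets of Meg3, Dlk1, Peg3, Mest, Grb10 and Plagl1. Gonad markers summed to 634.1, 1509 and 1011 in Ret-deficient kidneys, against 3446, 1117 and 747.2 in wild-type kidneys, with 1 of 7 above the controls on every array and Amh and Dazl on none. On wild-type replicate 1 the gonad marker Gata4 reached 1390, against at most 393.9 on the other arrays, and Lhx9 reached 715.0, against at most 92.6. Foxl2 and Dppa3 were also highest there, while Amh and Dazl were not. Inha, the gonad marker above the controls on every array, was not highest there either (662.3, against 767.2 on wild-type replicate 2). The part of muscle and gonad signal in the members' values was not tested. Neural crest and neuron markers (6 of 9 with a probe set, 5 above the controls on every array) summed to 9079, 6175 and 6131 in Ret-deficient kidneys, against 11662, 11148 and 12248 in wild-type kidneys, without overlap. Of the 5 tested markers, only Sox10 did not overlap, beside 11.8% of all genes. Its signals were 2268.5, 1100 and 1644 in Ret-deficient kidneys, against 6971, 3770 and 3362 in wild-type kidneys. The part of the neural crest and neuron markers in the members' values was not tested either.

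The genes whose profile over the 6 arrays was most like that of a member were named for Dlk1, the member with the widest range, and for Igf2. Likeness was the root mean square difference between log2 profiles centred on their own mean, over 11154 other genes. For Dlk1 the closest were Cyp51 (0.080), Spag5 (0.081), Hs6st2 (0.082), Ints6 (0.085) and Cuedc1 (0.099). The closest member was Mest (0.26), which ranked only 608 among the 11154 genes. Meg3, the neighbour of Dlk1, stood at 0.46 (rank 6355). For Igf2, whose profile is nearly flat, the closest were Fstl1 (0.033), Mapre2 (0.034), Bbip1 (0.034), Ubtd2 (0.037) and Cep19 (0.038). The closest member to Igf2 was Ndn (0.096, rank 554). These are descriptions over 6 arrays, and all genes of an array share its genotype, sex, scaling and RNA quality.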

How the data were processed

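RNA of 6 whole embryonic kidney samples was measured on Affymetrix mouse whole-genome arrays. The deposited values are linear signal intensities that the authors computed with MAS5, per the submitters' processing notes (scaling target not given in the sources used here). The mean, after trimming 2% at each end, was 2500 on every array. The design text has the RNA amplified with a NuGEn kit, while the labels' protocol describes standard labelling.

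The intensities were used as log2(signal + 16), which understates changes of dim probe sets. Arrays were not centred, since their log2 medians differed by 0.42, under the limit of 0.5. After removal of 64 control probe sets, the 22519 probe sets with a mean signal at or above the median mean were tested. The comparison used limma 3.58.1 (lmFit and eBayes) under R 4.3.3, with Benjamini-Hochberg adjustment and a threshold of 0.05. The fitting step was tested on simulated data. Symbols came from the platform annotation, updated with RefSeq gene IDs of GRCm38.p6 (99.4% matched). A gene is represented by its brightest tested probe set.

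The members and gene lists were chosen with earlier results of these data known. All members were named, and from each other list at most 3 genes with the smallest unadjusted p, plus the receptors Igf1r and Igf2r. As likeness, 5 genes were named for Dlk1 and for Igf2. Alternatives were the pseudocount (1 and 64), the filter (none, or the brightest 30%), quantile normalization, median centring, an intensity trend, array weights, the replicate number as a block, leaving out each array, and averaging all tested probe sets per gene.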

Additional observations from a re-analysis of the deposited data

How the results depend on the processing

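Over 16 alternatives the 9 members gave 144 results, of which 131 kept their sign, 13 turned and 0 passed the test, with a lowest adjusted p of 0.611 in limma. Meg3, Cdkn1c, Dlk1 and Ndn kept their sign in all 16. Median centring added 0.11 to every log2 difference, which turned Peg3 to 0.075 and Mest to 0.051 and moved the maternal median to 0.12. Array quality weights turned Peg3 to 0.074 and Mest to 0.024. Quantile normalization turned Grb10 to -0.028. Averaging all tested probe sets per gene turned Igf2 to -0.32 and Plagl1 to -0.17 and moved the maternal median to 0.29, the paternal median to -0.13 and their difference to 0.42. Leaving out 1 array at a time gave -0.037 to 0.080 for Grb10, -0.11 to 0.096 for Peg3, -0.099 to 0.23 for Plagl1 and -0.037 to 0.049 for the maternal less the paternal median.

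Over all tested probe sets the count past the threshold was 0, against 2 with array weights (Calcr and Ret), 1 with an intensity trend (Ret), 2 with median centring (both Ret) and 0 to 1 when 1 array was left out (Ret, without Ret-deficient replicate 1). The count of other imprinted genes past it was 1 (Calcr) with array weights. At an unadjusted p under 0.05 the 1208 probe sets became 2541 with array weights, 734 among the brightest 30%, 2265 with no filter and 2140 without Ret-deficient replicate 3. With the replicate block the counts past the threshold were 0 and the unadjusted count was 1134, and it changed no call. Samples sharing a replicate number did not deviate together (Pearson r across tested probe sets of 0.041, -0.036 and -0.11). Ret-deficient replicate 1 correlated best with wild-type replicate 3 (0.13), and Ret-deficient replicate 3 with wild-type replicate 2 (0.22, the highest). Whether samples of 1 number share a litter or batch was not tested. The causes were not tested.

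With 3 arrays a group the median SE over tested probe sets was 0.23 on the log2 scale. The intervals printed are not the detection limit of the adjusted test, which also left larger differences uncalled. Among these were Stc2 (-1.85, adjusted p = 0.861 in limma) and Ret (-5.43, adjusted p = 0.299 in limma). The allele of origin cannot be read from these signals.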
